A study of Mus musculus with 20 samples.

Results

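Tumours of CT26 cells carrying an empty vector were compared between mice given an antibody against PD-1 and mice given PBS, by RNA sequencing of tumour tissue. The 10 libraries are those labelled CT26-vector+anti-PD-1 (5 tumours) and CT26-vector+PBS (5 tumours), out of 20 libraries in the series, and the labels alone chose them. CT26 cells come from a chemically induced colon carcinoma of a BALB/c mouse, and in all 10 tumours the genotype is given as control. The other 10 tumours grew from POLE-mutant CT26 cells, 5 under anti-PD-1 and 5 under PBS, and serve here only to set the size of the vector response beside another one. The series title names CHEK2, while the sample labels and the design text name POLE. The control mice received PBS, and no isotype antibody is named. The antibody clone, dose and schedule, the age of the mice and the number of vector clones are not given in the labels. The design text gives 5 per group, so each library is taken as 1 mouse, although no label says that the tumours came from separate experiments. Replicate numbers only name a tumour.

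PD-1 is a receptor of activated T cells that damps signalling from the T cell receptor when it meets its ligand PD-L1 or PD-L2. An antibody that blocks it can release T cells in the tumour, which then secrete interferon-gamma. Interferon-gamma acts through its receptor on tumour and host cells and switches on chemokines such as Cxcl9, the machinery of antigen presentation and PD-L1 itself. CT26 is widely used as a tumour that responds in part to this treatment.

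Values are FPKM, a read count scaled by transcript length and library size, one per gene and library. Fold changes are differences of log2(FPKM + 1), anti-PD-1 minus PBS, with SE, from limma fitted to 13982 genes that reached 1 FPKM in at least 5 of the 20 libraries. All p-values attached to a gene are limma's, and adjusted ones use the Benjamini-Hochberg method over all 13982 genes with a threshold of 0.05. Adding 1 FPKM makes the fold changes of low genes smaller than the ratio of their FPKM values. The number of reads per library is unknown. Of 13 colon epithelium markers, 5 were tested. Cdx1 was listed at 0 in all 10 vector tumours and Epcam did not exceed 0.84 FPKM, whereas Krt18 ran from 7.86 to 22.6 FPKM and Krt20 from 7.32 to 72.1 FPKM over the 10 tumours.

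One library stood apart from the other 9 vector libraries before any comparison of groups, anti-PD-1 replicate 1. Its FPKM values summed to 566913, against 332127 to 395938 in the other 9. Small RNA genes took 8.40% of that sum, against 3.37% to 3.98% in the others, and genes of ribosomal proteins took 24% against 11.4% to 14.0%. Mitochondrial genes took 2.85%, against 6.43% to 11.1%. It had 11182 genes at 1 FPKM or more, against 12568 to 13228 in the others, and its mean Spearman correlation with them was 0.806, where theirs with the other vector libraries were 0.942 to 0.953. Across tested genes its median was 3.55 FPKM, below the 5.77 to 6.26 FPKM of the others. A larger sum therefore stood beside lower values for most genes.

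The excess of FPKM in anti-PD-1 replicate 1 lay in short transcripts. The gene with the largest excess, Gm26377, is annotated as a miRNA of 108 bases, and at 31976.5 FPKM against 5080.0 to 8212.4 FPKM in the others it made up 12.3% of the summed excess. Rplp1, a protein of the large ribosomal subunit, followed with 11484.8 FPKM against 2604.7 to 3638.8 FPKM, and Rpl36, another, with 8570.0 FPKM against 1225.9 to 1745.8 FPKM. S100a6, a small calcium-binding protein, had 3535.0 FPKM, against 367.2 to 704.4 FPKM in the others. At the other end, some messenger RNAs were low or listed at 0. Txnip, a glucose-responsive regulator of thioredoxin, had 0.429 FPKM, against 67.4 to 105 FPKM. Ddx3x, an RNA helicase, had 0.913 FPKM, against 50.6 to 83.4 FPKM, and the septin gene Sept2 was listed at 0, against 68.4 to 86.1 FPKM. These genes were chosen by the size of their gap in this library.

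Exonic length, the summed length of a gene's exons, ordered the deviations of this library. Over 54 protein-coding genes of up to 600 bases the library's median log2 difference from the other 9 vector libraries was 1.22. It was 0.949 over 219 genes of up to 1000 bases and 0.384 over 1166 genes of up to 2000 bases. It was -0.270 over 3276 genes of up to 4000 bases, -0.705 over 4102 of up to 8000 bases, each class starting where the one before ends, and -1.05 over 1857 longer ones. The other 9 libraries deviated less in the plot of median difference by exonic length, with trends in either direction. Over genes, the deviation had a Spearman correlation of -0.511 with length in anti-PD-1 replicate 1 and of -0.339 to 0.354 in the other vector libraries. With the GC content of the transcripts it was 0.335 in this library and -0.393 to 0.275 in the others. RNA quality values are not part of the labels, and the cause of the shift was not tested.

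**Figure D1:**
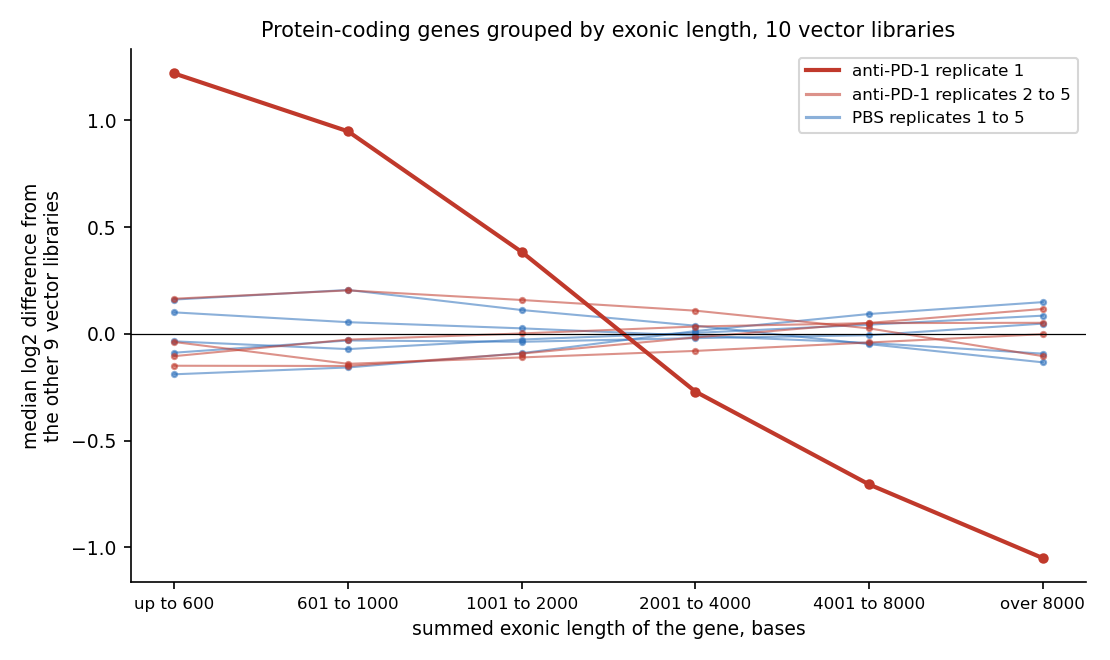
Median difference in log2(FPKM + 1) of each vector library (vertical axis) over protein-coding genes grouped by summed exonic length in bases (horizontal axis). Differences are from each gene's median over the other 9 vector libraries. The thick red line is anti-PD-1 replicate 1, from 1.22 in the shortest genes to -1.05 in the longest; thin red lines are anti-PD-1 replicates 2 to 5 and blue lines the 5 PBS libraries.

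The same trend entered the comparison of groups. The median log2 fold change was 0.315 in genes of up to 600 bases and -0.203 in those over 8000 bases, and without anti-PD-1 replicate 1 all 6 length classes lay between -0.0198 and 0.00439. At the level of whole libraries the groups could not be told apart. The FPKM sum averaged 401375 ± 92990 in anti-PD-1 and 363102 ± 26320 in PBS libraries (SD, n = 5 each; exact two-sided permutation test, p = 0.611, adjusted over 6 measures 0.733). Without replicate 1 the anti-PD-1 mean was 359990 ± 10565 (SD, n = 4; exact permutation p = 0.825). Shares of small RNA, mitochondrial and ribosomal protein genes and the number of detected genes had adjusted exact permutation p-values of 0.733 to 0.81. Each result below is given with this library, and without it where that changes the reading.

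No gene passed the threshold in vector tumours. Higher under anti-PD-1 were 0 of 13982 genes (0.0%) and lower were 0 (0.0%), and the smallest adjusted p was 0.724, limma's value for each of the 10 higher and 10 lower genes with the smallest p. At an unadjusted p under 0.05 there were 426 genes, 3.05% of those tested, of which 187 were higher (1.34%) and 239 lower (1.71%). That is a smaller share than a threshold of 0.05 gives on average when no gene differs. In simulated data of the same size, the fit called 28% of genes changed 1.5-fold, 70% of those changed 2-fold and 96% of those changed 4-fold. There each gene had 1 residual spread in all libraries, and values were independent between genes. No simulated library stood apart as anti-PD-1 replicate 1 does, so these shares may be too high for the measured data. Array weights, which let limma give anti-PD-1 replicate 1 a weight of 0.0347, brought 5 genes past the threshold: Irf9, Cxcl9, Ubd, Cd74 and Plbd1, all 5 higher. Without any 1 of the 20 libraries, no gene passed.

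Most genes lay slightly below 0 on the log2 fold change scale. The median was -0.08, 90% of genes lay between -0.45 and 0.37, and 63.2% were below 0. A log2 fold change of 1 or more was found for 67 genes (0.479%) and of -1 or less for 30 (0.215%). Without anti-PD-1 replicate 1 the median was 0.00174 and the genes at p under 0.05 numbered 333, of which 221 were higher and 112 lower, and 164 were among the 426. The split between higher and lower genes moved with single libraries, from 66.4% higher without anti-PD-1 replicate 1 to 18.9% higher without replicate 4 (150 higher, 644 lower), with 43.9% when all were kept; without replicate 2 it was 454 higher and 816 lower. It also depended on scaling, with 86 higher and 229 lower when libraries were rescaled to the same total, 266 and 229 after quantile normalization, and 303 and 224 after removal of the trend on exonic length. The count was 201 without PBS replicate 3, 247 without PBS replicate 2, 794 without anti-PD-1 replicate 4 and 1270 without anti-PD-1 replicate 2.

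The spread between tumours differed between the groups in the same way. The median SD of a gene over tumours was 0.400 on the log2 scale in anti-PD-1 and 0.166 in PBS tumours, and 0.172 in anti-PD-1 tumours without replicate 1. Groups that did not overlap were found for 109 genes: in 39 (0.279%) every anti-PD-1 tumour lay above every PBS tumour and in 70 (0.501%) every one lay below. Of the 39, 7 were MHC class II genes. In another 285 genes 4 of the 5 anti-PD-1 tumours lay above every PBS tumour, and in 308 genes 4 lay below. The plot of fold change against mean level shows the cloud of genes with and without the outlying library, with the interferon-gamma induced, MHC class II and skeletal muscle genes marked.

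**Figure D2:**
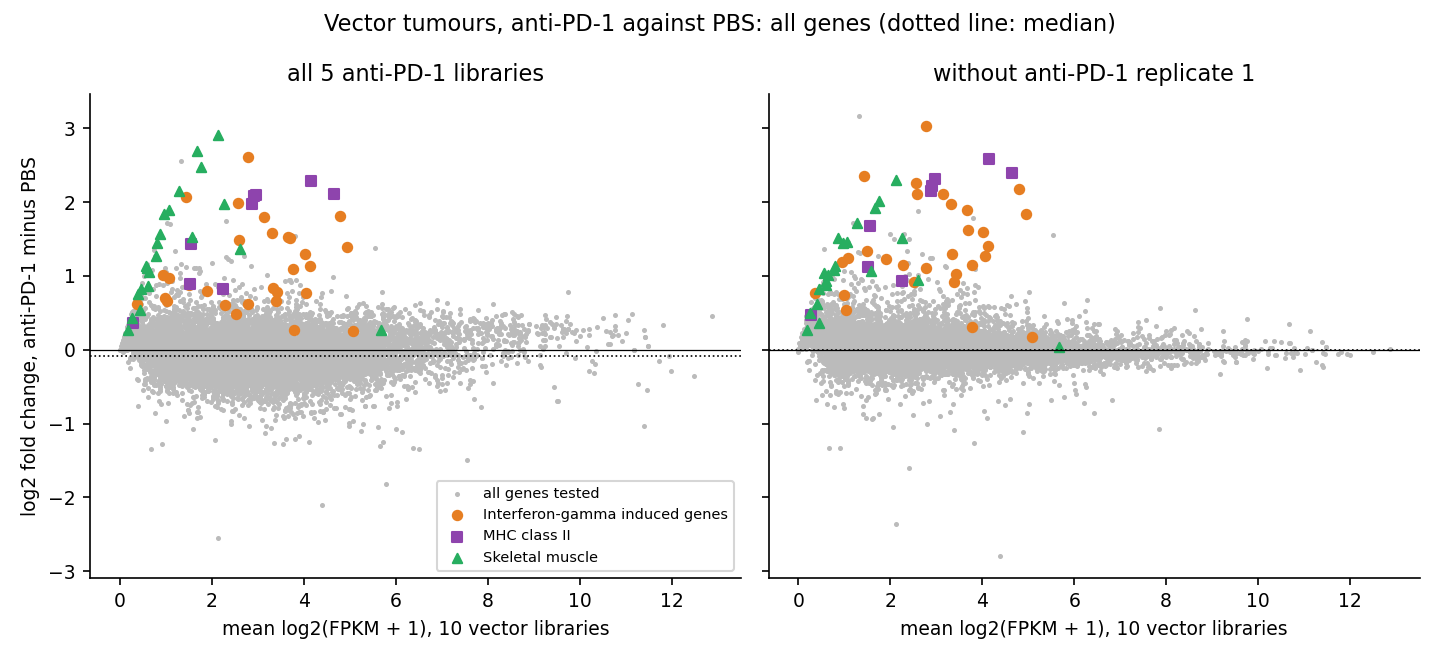
Log2 fold change, anti-PD-1 minus PBS (vertical axis), against the mean log2(FPKM + 1) over the 10 vector libraries (horizontal axis) for 13982 genes, with all 5 anti-PD-1 libraries (left) and without replicate 1 (right). Grey points are all genes, the dotted line is their median (-0.08 left, 0.00174 right); orange, purple and green mark 29 interferon-gamma induced, 9 MHC class II and 22 skeletal muscle genes, which are all above 0.

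Interferon-gamma itself was close to the limit of detection. Ifng, the gene of this cytokine of activated T and NK cells, had 0.0342, 0.384, 0.391, 1.41 and 0.281 FPKM in anti-PD-1 replicates 1 to 5, against 0, 0, 0, 0 and 0.0302 FPKM in PBS replicates 1 to 5. All 5 anti-PD-1 tumours lay above all 5 PBS tumours, with replicate 4 the highest and replicate 1 next to the PBS values, and 4 PBS tumours were listed at 0. Limma's adjusted p was 0.724. Of 10 genes of the interferon-gamma pathway, 7 had a log2 fold change above 0, beside 36.8% of all genes. In this list 0 had p under 0.05 in either direction, beside 3.05%. Their median was 0.13, beside -0.08 over all genes, and 0.48 without replicate 1, where all 10 were above 0. Irf8, a transcription factor of myeloid and dendritic cells, ran from 2.95 to 8.36 FPKM in anti-PD-1 and from 1.46 to 3.29 FPKM in PBS tumours, with anti-PD-1 replicates 1 and 2 inside the PBS range.

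Genes induced by interferon-gamma lay above 0 throughout, although none passed the adjusted threshold. All 29 genes of the list had a log2 fold change above 0, as 36.8% of all genes did, and 14 were higher at p under 0.05, beside 1.34%. The median was 0.97, beside -0.08 over all genes, and 1.27 without replicate 1. Ubd, which encodes the ubiquitin-like protein FAT10, had the smallest p of all genes. Its levels were 1.65, 3.31, 5.24, 14.9 and 3.51 FPKM in anti-PD-1 tumours, against 0.705, 0.0800, 0.219, 0.472 and 0.192 FPKM in PBS tumours. Every anti-PD-1 tumour was above every PBS tumour. The log2 fold change was 2.07 ± 0.44 (SE, n = 5 each; limma adjusted p = 0.724).

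Cxcl9, a chemokine that draws Cxcr3-bearing T cells, had 4.50, 10.6, 17.9, 57.5 and 19.4 FPKM in anti-PD-1 tumours, against 5.27, 1.18, 1.87, 1.13 and 0.995 FPKM in PBS tumours. Here replicate 1 of anti-PD-1 fell inside the PBS range, which was set by PBS replicate 1, and the other 4 were above it. The log2 fold change was 2.61 ± 0.64 (SE, limma adjusted p = 0.724), and 3.04 without anti-PD-1 replicate 1. Cxcl10, a second ligand of Cxcr3, had 5.67, 8.68, 14.2, 31.7 and 11.5 FPKM in anti-PD-1 tumours and 16.9, 7.46, 6.23, 4.99 and 5.30 FPKM in PBS tumours, so that the groups overlapped and only anti-PD-1 replicate 4 lay above all PBS tumours. Cd274, the gene of PD-L1, had 1.22, 8.29, 10.2, 19.0 and 8.58 FPKM in anti-PD-1 tumours and 3.69 to 5.31 FPKM in PBS tumours. For Cd274, too, replicates 2 to 5 were above and replicate 1 below the PBS range.

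Serpina3g, an intracellular inhibitor of proteases, had 5.46, 6.03, 13.5, 38.5 and 7.70 FPKM in anti-PD-1 tumours, against 6.09, 1.46, 2.16, 0.911 and 1.15 FPKM in PBS tumours. Fcgr4, an activating IgG receptor of myeloid cells, had 17.6, 12.1, 17.2, 52.9 and 20.2 FPKM in anti-PD-1 tumours, against 14.7, 5.65, 8.17, 5.08 and 3.63 FPKM in PBS tumours. In both genes PBS replicate 1 overlapped the anti-PD-1 group and the other 4 PBS tumours were below all 5 anti-PD-1 tumours. Log2 fold changes were 1.99 ± 0.58 for Serpina3g and 1.51 ± 0.44 for Fcgr4 (SE, limma adjusted p = 0.724 for both).

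The promoters were searched for sequence motifs that interferon-gamma signalling is known to use. These are the gamma-activated site, searched as TTCNNNGAA, and the interferon-stimulated response element, which IRF factors bind, searched as 2 copies of GAAA with 2 bases of any kind between them. MHC class II promoters are read by the enhanceosome with CIITA through a module that ends in the Y box, searched as ATTGG, which is also the common CCAAT element of other genes read on the opposite strand. The 250 bases before the start of each gene were searched on both strands in the RefSeq promoters of GRCm38.p6. Of the 10 higher genes with the smallest p, 7 had a promoter there. They are shown for 4 of them, with motif letters in capitals: H2-Aa (chr17:34287824-34288073, minus strand) and H2-Eb1 (chr17:34305617-34305866, plus strand), the alpha chain of I-A and the beta chain of I-E, Fcgr4 (chr1:171018676-171018925, plus strand) and Serpina3g (chr12:104235897-104236146, plus strand). Each runs from 5′ to 3′ on the gene's strand and ends at the base before the start.
H2-Aa: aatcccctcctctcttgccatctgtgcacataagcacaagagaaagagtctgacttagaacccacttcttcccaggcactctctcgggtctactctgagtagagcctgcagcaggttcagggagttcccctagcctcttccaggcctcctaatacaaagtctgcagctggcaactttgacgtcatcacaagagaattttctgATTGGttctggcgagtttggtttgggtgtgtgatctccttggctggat
H2-Eb1: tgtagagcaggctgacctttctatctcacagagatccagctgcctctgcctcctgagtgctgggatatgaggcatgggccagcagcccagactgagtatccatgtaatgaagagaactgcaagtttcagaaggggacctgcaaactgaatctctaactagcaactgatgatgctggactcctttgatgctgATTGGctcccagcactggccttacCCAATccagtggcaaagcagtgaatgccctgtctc
Fcgr4: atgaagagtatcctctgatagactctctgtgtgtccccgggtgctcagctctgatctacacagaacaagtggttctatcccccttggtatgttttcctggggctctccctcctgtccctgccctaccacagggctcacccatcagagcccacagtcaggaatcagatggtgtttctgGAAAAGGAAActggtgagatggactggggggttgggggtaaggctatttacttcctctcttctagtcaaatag
Serpina3g: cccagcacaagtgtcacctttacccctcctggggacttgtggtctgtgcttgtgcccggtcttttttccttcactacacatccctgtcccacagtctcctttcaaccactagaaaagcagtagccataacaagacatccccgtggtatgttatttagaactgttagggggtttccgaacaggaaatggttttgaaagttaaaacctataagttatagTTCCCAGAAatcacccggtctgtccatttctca

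H2-Aa has a Y box match 48 to 44 bases before the start, and H2-Eb1 has matches 59 to 55 and 35 to 31 bases before it, the second on the opposite strand. Fcgr4 has an interferon-stimulated response element 73 to 64 bases before its start and Serpina3g a gamma-activated site 33 to 25 bases before. The Ubd, Cxcl9 and Psmb9 windows, not printed, hold Y box letters and neither interferon motif, so 1 of these 7 promoters held the gamma-activated site and 1 the interferon-stimulated response element. Among 7 promoters of the lower genes with the smallest p, neither interferon motif was found. Among interferon-gamma induced genes with a promoter, 13 of 19 (68.4%) held the interferon-stimulated response element, beside 2.98% of 32851 promoters, and 7 of 19 (36.8%) held the gamma-activated site, beside 7.02%. The Y box stood in 4 of 5 class II promoters, in 4 of the 7 promoters of lower genes (57.1%) and in 33.8% of all promoters, so a match to these short letters is common. A match describes letters in this window and not binding, and no element overlapped another in the printed sequences.

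MHC class II molecules display peptides to CD4 T cells, and 9 of 11 listed genes were tested. All 9 had a log2 fold change above 0, beside 36.8% of all genes, 8 were higher at p under 0.05, beside 1.34%, and in 7 the groups did not overlap, beside 0.279%. Their median was 1.98, and 2.15 without anti-PD-1 replicate 1. Cd74, the invariant chain that guides class II molecules, had 29.6, 44, 38.7, 169 and 41.7 FPKM in anti-PD-1 tumours, against 12.9, 9.39, 16.4, 10.1 and 8.46 FPKM in PBS tumours. All anti-PD-1 tumours were above all PBS tumours, replicate 4 far above the rest. The log2 fold change was 2.11 ± 0.53 (SE, limma adjusted p = 0.724).

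The chains of the I-A and I-E molecules were likewise highest in anti-PD-1 replicate 4. H2-Ab1 had 10.1, 9.23, 11.7, 60.8 and 11.2 FPKM in anti-PD-1 tumours, against 2.71, 2.35, 4.78, 3.10 and 1.67 FPKM in PBS tumours. H2-Eb1 had 12.3, 7.72, 10.3, 57.9 and 10.4 FPKM in anti-PD-1 tumours, against 3.28, 2.13, 4.58, 2.31 and 1.65 FPKM in PBS tumours. H2-Aa had 10.9, 8.0, 9.44, 51.2 and 10.2 FPKM in anti-PD-1 tumours, against 3.83, 2.13, 4.75, 2.04 and 1.60 FPKM in PBS tumours. In these 3 genes 4 anti-PD-1 tumours lay close together, replicate 1 among them, and replicate 4 stood apart above them. Log2 fold changes were 2.09 ± 0.59, 2.08 ± 0.60 and 1.98 ± 0.59 (SE, limma adjusted p = 0.724 each). Ciita, the transactivator of class II genes, had 0.0934, 0.0809, 0.346, 1.51 and 0.222 FPKM in anti-PD-1 tumours and 0.0320 to 0.0937 FPKM in PBS tumours. Its groups overlapped and only replicate 4 passed 1 FPKM. H2 genes are polymorphic and the files were made on a C57BL/6 genome, so their absolute levels in BALB/c tissue may be biased in both groups.

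**Figure D3:**
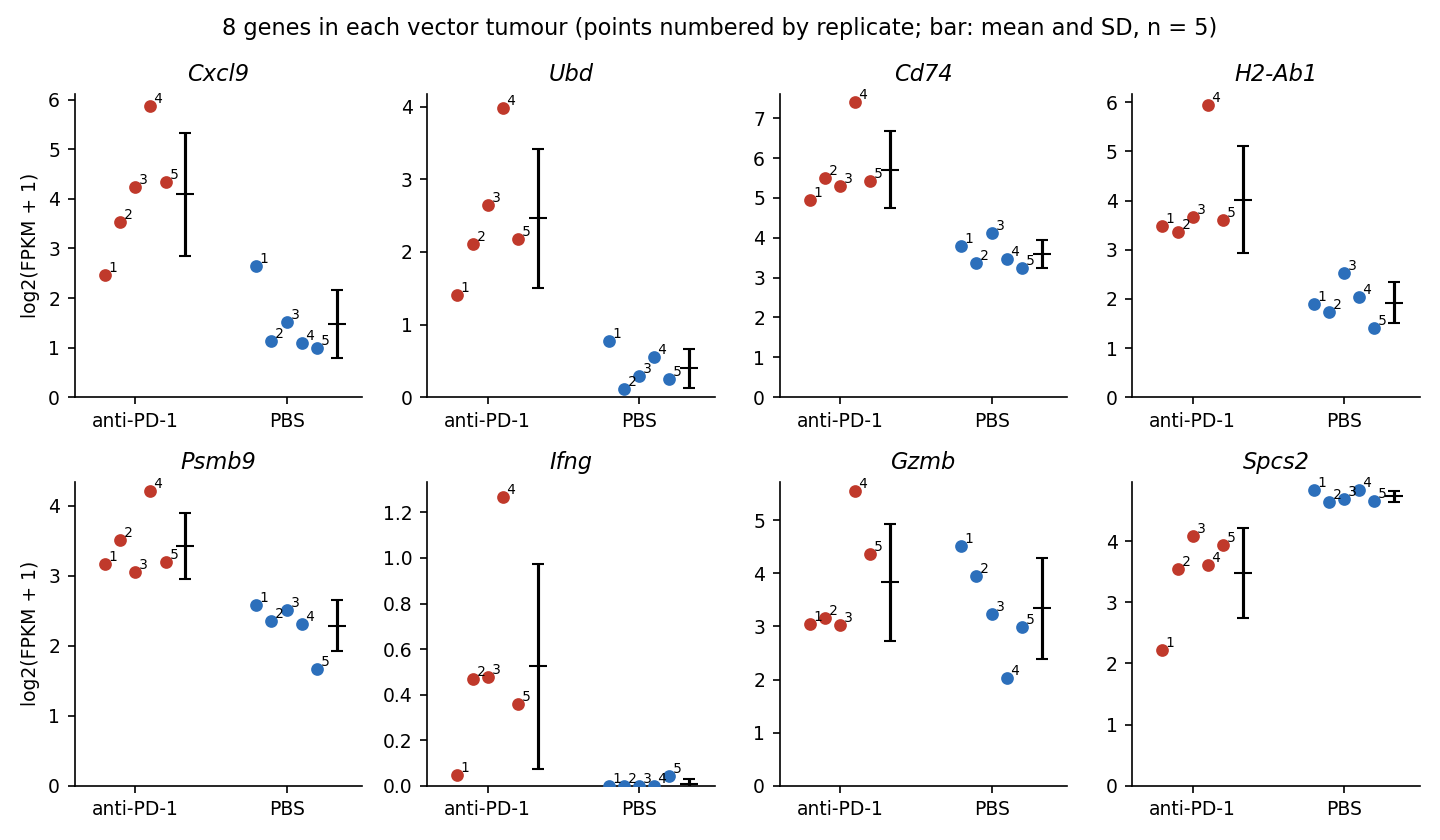
Log2(FPKM + 1) of 8 genes (panels) in each vector tumour, with anti-PD-1 in red on the left and PBS in blue on the right, points numbered by replicate; bars are the mean and SD (n = 5). Cxcl9, Ubd, Cd74, H2-Ab1, Psmb9 and Ifng are highest in anti-PD-1 replicate 4, Gzmb overlaps between groups, and Spcs2 is lower in every anti-PD-1 tumour than in every PBS tumour.

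The immunoproteasome cuts peptides for MHC class I and is built from 3 inducible subunits, Psmb8, Psmb9 and Psmb10, with PA28 as its activator. All 6 genes of this list had log2 fold changes above 0, beside 36.8% of all genes, and 4 were higher at p under 0.05, beside 1.34%. The median was 0.75, or 0.55 without anti-PD-1 replicate 1. Psmb9 had 8.01, 10.4, 7.27, 17.6 and 8.17 FPKM in anti-PD-1 tumours, against 5.02, 4.13, 4.68, 3.99 and 2.19 FPKM in PBS tumours. Psmb8 had 19.9, 11.2, 10.6, 30.1 and 12.5 FPKM in anti-PD-1 tumours, against 10.1, 7.74, 7.53, 6.47 and 6.87 FPKM in PBS tumours. Neither gene overlapped between the groups, with log2 fold changes of 1.14 ± 0.32 for Psmb9 and 0.94 ± 0.30 for Psmb8 (SE, limma adjusted p = 0.724 both). Psmb10 had 73.6, 21.2, 19.6, 59.5 and 23.5 FPKM in anti-PD-1 and 25.3, 14.8, 16.0, 14.1 and 14.5 FPKM in PBS tumours, with the highest value in the outlying library. Over MHC class I and its peptide loading, 15 of 19 genes were above 0 and 4 were higher at p under 0.05, beside the same shares of all genes, with a median of 0.26, and of 0.54 without replicate 1. B2m, the light chain of class I, had 1404.7, 1875.3, 1486.1, 2293.9 and 1931.3 FPKM in anti-PD-1 tumours and 1316.2 to 1739.4 FPKM in PBS tumours, which overlapped (log2 fold change 0.25 ± 0.17, SE, limma adjusted p = 0.724).

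Type I interferon-stimulated genes showed a smaller difference. Of 32 tested, 23 were above 0, beside 36.8% of all genes, and 3 were higher at p under 0.05, beside 1.34%. The median was 0.22. Zbp1, a sensor of unusual nucleic acids, had 8.95, 10.4, 11.9, 25.2 and 8.66 FPKM in anti-PD-1 and 8.86, 5.49, 5.33, 4.56 and 3.92 FPKM in PBS tumours. PBS replicate 1 again fell within the anti-PD-1 range. The list's score, log2(FPKM + 1) averaged over its tested genes, was 3.35, 3.52, 3.66, 4.07 and 3.33 in anti-PD-1 tumours, against 3.93 in PBS replicate 1 and 3.11 to 3.32 in the other PBS tumours. Irf9, a subunit of the type I interferon transcription factor, had 2.87, 7.08, 6.39, 8.50 and 6.14 FPKM in anti-PD-1 and 3.18 to 4.24 FPKM in PBS tumours. Anti-PD-1 replicates 2 to 5 were above every PBS tumour, and replicate 1 was below all of them.

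T cell transcripts were at the bottom of the measurable range in both groups. All 19 tested markers had a log2 fold change above 0, beside 36.8% of all genes, and 3 were higher at p under 0.05, beside 1.34%. The median was 0.27, or 0.38 without replicate 1. Of the 19, 3 reached 1 FPKM in at least 5 vector libraries and 10 reached it in none. These markers entered the fit largely through mutant tumours. Cd8a, the coreceptor of cytotoxic T cells, had 0.0906, 1.10, 0.121, 1.29 and 0.499 FPKM in anti-PD-1 tumours, against 0, 0.0322, 0.128, 0.0297 and 0.0255 FPKM in PBS tumours. Anti-PD-1 replicates 2, 4 and 5 were above all PBS tumours, and replicates 1 and 3 were inside their range. Trbc2, a constant region of the T cell receptor beta chain, had 2.26, 3.36, 1.79, 4.74 and 2.31 FPKM in anti-PD-1 tumours, against 1.53, 0.705, 1.12, 0.295 and 0.127 FPKM in PBS tumours. Trbc2 did not overlap, and its log2 fold change was 1.16 ± 0.41 (SE, limma adjusted p = 0.724). Trbc1 and Trbc2 are near-identical and can share reads. In bulk tissue, more T cells and more RNA per T cell cannot be told apart.

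Pdcd1, the gene of PD-1 and the target of the antibody, had 0.131, 1.25, 0.343, 1.13 and 0.744 FPKM in anti-PD-1 tumours, against 0.108, 0.283, 0.412, 0.0901 and 0.0772 FPKM in PBS tumours. Its groups overlapped, with anti-PD-1 replicates 2, 4 and 5 above all PBS tumours (log2 fold change 0.49 ± 0.35, SE, limma adjusted p = 0.724). Cd4 had 0.0697, 0.115, 0.697, 0.491 and 0.202 FPKM in anti-PD-1 and 0.0922 to 0.550 FPKM in PBS tumours, and its small difference changed sign with several settings. Of 13 T cell checkpoint genes, 9 were above 0, beside 36.8% of all genes, and 0 had p under 0.05, beside 3.05%.

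Cytotoxic effector genes overlapped widely. Of 16 tested, 15 were above 0, beside 36.8% of all genes, and 1 was higher at p under 0.05, beside 1.34%. The median was 0.28. Without anti-PD-1 replicate 1, 12 of the 16 were above 0, beside 7070 of 13982 genes. Gzmb, granzyme B, had 7.28, 8.0, 7.19, 45.8 and 19.6 FPKM in anti-PD-1 tumours, against 21.8, 14.4, 8.48, 3.06 and 7.0 FPKM in PBS tumours. Only anti-PD-1 replicate 4 lay above the PBS range, and PBS replicate 1 was the second highest of all 10 (log2 fold change 0.49 ± 0.59, SE, limma adjusted p = 0.761). Prf1, perforin, gave 3.02, 5.4, 2.30, 15.6 and 9.82 FPKM in anti-PD-1 and 9.13, 7.51, 3.53, 0.746 and 2.54 FPKM in PBS tumours, again with wide overlap. Gzma, granzyme A, had 10.7, 3.34, 7.11, 36.4 and 5.70 FPKM in anti-PD-1 and 2.0 to 6.0 FPKM in PBS tumours and was the member with p under 0.05 (log2 fold change 1.27 ± 0.46, SE, limma adjusted p = 0.724). Granzyme genes lie in families of similar sequence and their single values are uncertain. All 7 NK cell markers tested were above 0, beside 36.8% of all genes, and 0 had p under 0.05, beside 3.05%. Of the 7, 2 reached 1 FPKM in at least 5 vector libraries. The NK score was 1.44 in anti-PD-1 replicate 4 and 0.633 to 0.778 in the other 4, against 0.335 to 0.881 in PBS tumours.

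Myeloid and stromal lists gave no common direction. Of 22 macrophage and monocyte markers 13 were above 0, beside 36.8% of all genes, and 0 had p under 0.05, beside 3.05%. Without anti-PD-1 replicate 1, 9 of the 22 were above 0, beside 7070 of 13982 genes. The median of the 22 was 0.01, or -0.04 without anti-PD-1 replicate 1. The list's score was 4.88, 4.50, 5.19, 5.31 and 5.00 in anti-PD-1 tumours and 4.84 to 5.17 in PBS tumours. Mrc1, the mannose receptor of tissue macrophages, had 31.0, 37.4, 98.4, 53.4 and 46.7 FPKM in anti-PD-1 and 50.6 to 117 FPKM in PBS tumours (log2 fold change -0.77 ± 0.37, SE, limma adjusted p = 0.724). Of 13 neutrophil markers 8 were above 0, and of 12 dendritic cell markers 9, beside 36.8% of all genes. Of the dendritic cell markers 1, Batf3, was higher at p under 0.05, beside 1.34%. Batf3 reached 1 FPKM in 1 vector anti-PD-1 and 0 vector PBS libraries and passed the filter through mutant tumours. Of the 12 dendritic cell markers, 4 reached 1 FPKM in at least 5 vector libraries. Fibroblast and matrix genes had 4 of 18 above 0, beside 36.8% of all genes. Their median was -0.29, which was -0.03 without anti-PD-1 replicate 1 and above 0 with array weights. Lyve1, a receptor of lymphatic endothelium and of some macrophages, had 9.46, 2.38, 17.2, 10.4 and 8.01 FPKM in anti-PD-1 tumours, against 18.9, 11.3, 36.4, 22.5 and 19.9 FPKM in PBS tumours. Anti-PD-1 replicate 3 overlapped the PBS group (log2 fold change -1.22 ± 0.54, SE, limma adjusted p = 0.724).

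Transcripts of muscle and blood varied between tumours. The 22 skeletal muscle genes tested, of which 4 reached 1 FPKM in at least 5 vector libraries, lay above 0, beside 36.8% of all genes. Of them 1 was higher at p under 0.05, beside 1.34%, and their median was 1.32 on the log2 scale. Acta1, muscle actin, had 72.8, 0.199, 145, 0.634 and 10.6 FPKM in anti-PD-1 tumours, against 2.15, 0.0761, 1.24, 0.0639 and 0.255 FPKM in PBS tumours. Anti-PD-1 replicates 1, 3 and 5 were high, and replicates 2 and 4 lay inside the PBS range. The summed level of the list was 455, 45, 710, 57.4 and 83.8 FPKM in anti-PD-1 tumours and 47.6 to 57.7 FPKM in PBS tumours. Defining muscle genes such as Tnnc2 were listed at 0 in anti-PD-1 replicates 2 and 4 and in 4 PBS tumours.

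Class II and T cell levels are set here beside those of the muscle genes. The class II score was 2.84, 2.89, 2.99, 4.96 and 3.09 in anti-PD-1 tumours, with the highest value in replicate 4, whose muscle level was that of PBS tumours, and 1.45 to 2.24 in PBS tumours. With the muscle score as a term in the fit, the median log2 fold change was 1.54 for class II, 0.75 for interferon-gamma induced genes and 0.13 for T cell markers. Without the term these medians were 1.98, 0.97 and 0.27. The genes at p under 0.05 numbered 268 with the term, beside 426 without it. The part of muscle tissue in the group difference was not tested. Erythroid genes, a sign of blood, had scores of 6.34, 4.10, 6.88, 4.51 and 7.07 in anti-PD-1 tumours and 4.49 to 6.24 in PBS tumours, and their part in the result was not tested. Of 10 skin markers, 1 was tested, Krt10, which reached 1 FPKM in all 5 anti-PD-1 and all 5 PBS tumours. Its log2(FPKM + 1) was 1.27 to 2.05 in anti-PD-1 and 1.32 to 1.73 in PBS tumours. Krt5 and Krt14 did not exceed 0.0567 FPKM in any vector tumour.

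**Figure D4:**
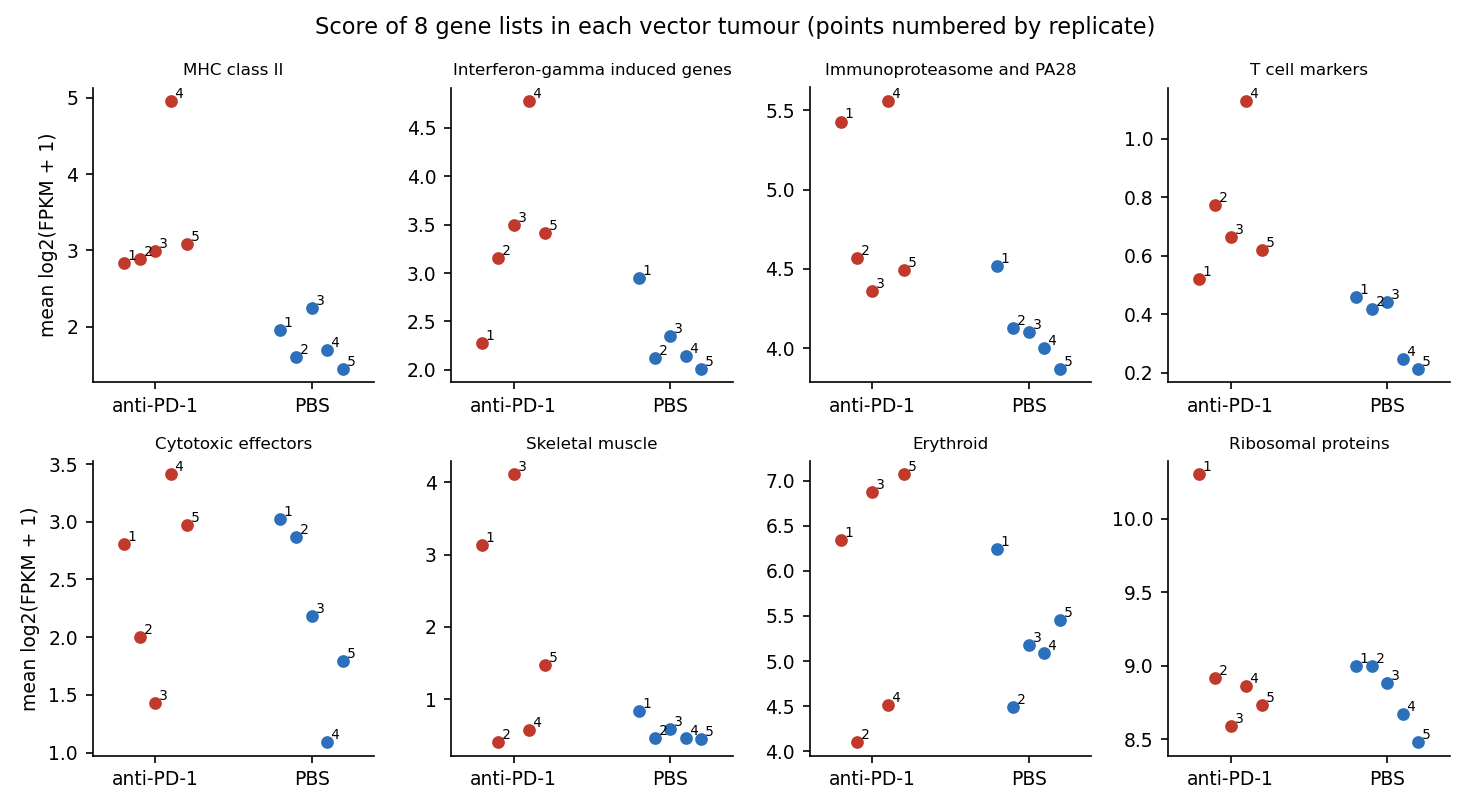
Score of 8 gene lists (panels; mean log2(FPKM + 1) of the tested genes) in each vector tumour, anti-PD-1 in red on the left and PBS in blue on the right, points numbered by replicate. Class II scores of anti-PD-1 tumours (2.84 to 4.96) are all above those of PBS tumours (1.45 to 2.24), muscle is high in anti-PD-1 replicates 1, 3 and 5, and ribosomal proteins are high in anti-PD-1 replicate 1.

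Among genes lower under anti-PD-1, the smallest p belonged to Spcs2, a subunit of the signal peptidase that trims proteins entering the endoplasmic reticulum. Its levels were 3.67, 10.7, 16.0, 11.3 and 14.4 FPKM in anti-PD-1 tumours, against 27.6, 24.1, 24.8, 27.5 and 24.2 FPKM in PBS tumours. Every anti-PD-1 tumour was far below every PBS tumour, replicate 1 the lowest. The log2 fold change was -1.25 ± 0.29 (SE, limma adjusted p = 0.724) and -0.92 without replicate 1. Over the 22 genes of signal peptidase and the signal recognition particle, 11 were above 0, beside 36.8% of all genes, and 11 below. Of these, 2 were lower at p under 0.05, Spcs2 and Srp14, beside 1.71%.

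The other 9 lower genes with the smallest p had log2 fold changes from -0.85 to -0.31. These values include anti-PD-1 replicate 1, the lowest anti-PD-1 tumour for Eri2, Haus2, Pot1b, Zfp808 and Mtif3. Eri2, a gene of the exoribonuclease family, had 0.0302, 3.26, 1.56, 1.99 and 1.41 FPKM in anti-PD-1 tumours, against 2.57, 3.04, 3.85, 3.51 and 3.85 FPKM in PBS tumours, and replicate 2 of anti-PD-1 was inside the PBS range. Hmgn5, a nucleosome-binding protein, had 14.4 to 28.4 FPKM in anti-PD-1 and 26.5 to 45.4 FPKM in PBS tumours, which overlapped. Haus2, a subunit of the augmin complex of the mitotic spindle, had 4.46 to 7.02 FPKM in anti-PD-1 tumours and 7.13 to 9.84 FPKM in PBS tumours, with no overlap. Its log2 fold change was -0.36 ± 0.12 (SE, limma adjusted p = 0.724), and -0.28 without anti-PD-1 replicate 1. Pot1b, which protects chromosome ends, had 0.398, 1.15, 2.25, 1.82 and 1.37 FPKM in anti-PD-1 and 2.11 to 2.37 FPKM in PBS tumours. Mib1 (a ubiquitin ligase of Notch signalling), Zfp808 (a zinc finger protein), Tpcn1 (an ion channel of endolysosomes), P2rx7 (an ATP-gated channel) and Mtif3 (a mitochondrial translation factor) lay between -0.72 and -0.31.

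Proliferation and repair genes had medians slightly below that of all genes, of which 36.8% were above 0. In the cell cycle list 4 of 31 genes were above 0, and 0 had p under 0.05 in either direction, beside 3.05% of all genes. The median was -0.18, beside -0.08 over all genes, or -0.12 without anti-PD-1 replicate 1. DNA polymerase and repair genes had 3 of 27 above 0 and a median of -0.21, or -0.08 without replicate 1. Of these 27, 1 was lower at p under 0.05, beside 1.71% of all genes, and 0 were higher. The 1 gene was Chek2, the checkpoint kinase in the series title. It had 3.39, 4.0, 6.37, 5.00 and 6.32 FPKM in anti-PD-1 tumours, against 4.95, 5.54, 6.78, 6.79 and 8.10 FPKM in PBS tumours, and the groups overlapped (log2 fold change -0.32 ± 0.13, SE, limma adjusted p = 0.724). Pole, the polymerase gene in the labels, had 4.05, 7.12, 10.02, 7.32 and 9.02 FPKM in anti-PD-1 and 6.45 to 10.4 FPKM in PBS tumours.

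Tumour by tumour, anti-PD-1 replicate 4 had the highest class II, interferon-gamma induced, T cell, NK cell and cytotoxic scores, replicate 3 the highest regulatory T cell, CC chemokine and mast cell scores among anti-PD-1 tumours, and replicate 1 deviated most over all genes. Against the PBS mean, replicate 1 had 1246 genes at least 2-fold above (8.91%) and 3564 at least 2-fold below (25.5%). Replicates 2 to 5 had 74, 198, 242 and 102 genes above and 109, 39, 84 and 55 below. Single PBS tumours set against the other 4 had 43 to 128 above and 44 to 184 below, so that replicates 3 and 4 exceeded the PBS tumours in genes above, and replicates 2 to 5 did not exceed them in genes below.

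The genes farthest outside the PBS range differed between tumours, and they are named by that gap. In replicate 4 they were H2-Ab1, H2-Eb1 and Cd74. In replicate 3 they were muscle genes, with Acta1 at 145 FPKM, Ckm at 51.3 FPKM against at most 0.655 FPKM in PBS, and Tnnt3 at 78.3 FPKM against at most 1.81 FPKM. Replicate 5 combined both, with Acta1, Mylpf and Cxcl9. In replicate 2 the third highest was Cd74, and among the lowest were C5ar1, the receptor of the complement fragment C5a, at 1.18 FPKM against 11 to 13.4 FPKM in PBS, and Lyve1 at 2.38 FPKM. C5ar1 was also low in replicate 1, at 0.746 FPKM, and inside or above the PBS range in the other 3.

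By score, the interferon-gamma induced genes stood at 2.28, 3.16, 3.50, 4.78 and 3.41 in anti-PD-1 tumours, against 2.95, 2.12, 2.35, 2.14 and 2.01 in PBS tumours. Replicate 4 was highest and replicates 2, 3 and 5 were above all PBS tumours, while replicate 1 was within the PBS range, below PBS replicate 1. The T cell score was 0.520, 0.773, 0.664, 1.13 and 0.620 in anti-PD-1 tumours, against 0.461, 0.419, 0.443, 0.247 and 0.214 in PBS tumours, with no overlap. The cytotoxic score was 2.81, 2.0, 1.43, 3.41 and 2.97 in anti-PD-1 tumours, against 3.02, 2.87, 2.18, 1.09 and 1.79 in PBS tumours, with overlap across nearly the whole range. PBS replicate 1 was the PBS tumour with the highest interferon-gamma induced, type I interferon and cytotoxic scores.

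Sample titles carry an animal identifier in 2 styles, M and a number or a number alone, whose meaning the labels do not give. Anti-PD-1 replicates 1, 2 and 4 and PBS replicates 1 to 3 are M-style, and the main fit has a term for it. Within M-style libraries Cxcl9, Ubd and Cd74 had log2 fold changes of 2.19, 2.11 and 2.18, and within number-only libraries of 3.25, 2.0 and 2.01. The median over class II genes was 2.0 in M-style and 1.92 in number-only libraries. The number-only fit, of 2 anti-PD-1 and 2 PBS vector tumours, called 1 gene, Srp14, and had 899 genes at p under 0.05, where the M-style fit called 0 genes and had 354.

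The response in vector tumours was then set against that of POLE-mutant tumours, which share no library with it. In mutant tumours 2226 genes (15.9%) were higher and 2045 (14.6%) lower under anti-PD-1 at an adjusted p under 0.05. The response itself differed for 1308 genes (9.35%), of which 273 (1.95%) were higher in vector and 1035 (7.4%) lower in vector, by limma's interaction contrast. Of the 13982 genes, 1165 reached 1 FPKM in fewer than 5 vector libraries and 274 in none. Such genes passed the filter at least in part through mutant tumours, and the counts and shares of this contrast include them. Leaving out vector anti-PD-1 replicate 1 made the count of 1308 genes 2247. Leaving out mutant anti-PD-1 replicates 1 and 2 as well, the 3 libraries with the lowest mean correlations, made it 387. It lay between 688 and 849 without any 1 of vector PBS replicates 3, 4 or 5, mutant PBS replicates 1, 2 or 5, or mutant anti-PD-1 replicates 1 or 2. Of the 187 genes higher at an unadjusted p under 0.05 in vector tumours, 89 (47.6%) were called higher in mutant tumours and 7 lower. Of the 239 lower ones, 41 (17.2%) were called lower in mutant tumours and 2 higher. Across genes the 2 responses had a Spearman correlation of 0.221, and of 0.387 without vector anti-PD-1 replicate 1. Both come from 1 fit with a shared term for identifier style, and genes are not independent.

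Lymphocyte genes were low in vector tumours and entered the fit largely through mutant tumours. Of the T cell markers tested, 3 of 19 reached 1 FPKM in at least 5 vector libraries and 10 reached it in none, and the same floor was reached by 11 of 16 cytotoxic genes, 2 of 7 NK markers and 5 of 13 checkpoint genes. A gene that passed only because it is high in mutant tumours under anti-PD-1 had to differ, so no count of calls is given for these lists, and the levels of such genes are a description. Pdcd1 averaged 0.719 ± 0.484 FPKM in vector anti-PD-1 and 0.194 ± 0.148 in vector PBS tumours, beside 19.7 ± 4.32 in mutant anti-PD-1 and 1.82 ± 2.60 in mutant PBS tumours (SD, n = 5). Cd8a averaged 0.620 ± 0.553 and 0.0430 ± 0.0490 FPKM in the vector groups under anti-PD-1 and PBS, and 14.9 ± 1.47 and 1.96 ± 2.97 FPKM in the mutant groups. Ifng averaged 0.50 ± 0.529 FPKM in vector anti-PD-1, 8.02 ± 1.68 in mutant anti-PD-1 and 1.25 ± 1.81 in mutant PBS tumours.

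Gzmb, Prf1 and Adgre1 reached 1 FPKM in at least 9 of the 10 vector libraries, so the filter did not select them by their level in mutant tumours. Their responses were lower in vector than in mutant tumours by limma's interaction contrast. The difference was -3.38 for Gzmb (adjusted p = 0.0189), -2.77 for Prf1 (adjusted p = 0.0199) and -3.02 for the macrophage marker Adgre1 (adjusted p = 0.0029). Without the 3 libraries of lowest mean correlation Gzmb no longer passed, at -3.29 (limma adjusted p = 0.0721), and the other 2 did.

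Interferon-gamma induced, class II and immunoproteasome genes were looked up in the same contrast. Of 29 interferon-gamma induced genes 1 was called lower in vector, of 9 class II genes 1, Ciita, which reached 1 FPKM in 1 vector library and passed the filter through mutant tumours, and of 6 immunoproteasome genes 0, beside 7.4% of all genes. Counts of 0 and 1 in lists of this size are too small to be read against that share. Median differences were -0.89, -2.0 and -0.46. For Cxcl9 the vector minus mutant difference in response was 0.09 ± 0.91 and for Ubd -0.37 ± 0.62 (SE, limma adjusted p = 0.967 and 0.765). For Cd74 it was -1.84 ± 0.76 and for H2-Ab1 -2.19 ± 0.84 (SE, limma adjusted p = 0.128 and 0.103). The wide errors mean that these values do not show equal responses. In FPKM the mutant tumours were higher throughout, with Cd74 at 64.7 ± 58.8 in vector anti-PD-1 and 11.4 ± 3.20 in vector PBS, beside 1076.2 ± 232 in mutant anti-PD-1 and 142 ± 199 in mutant PBS tumours (SD, n = 5). The plot of list medians sets both responses side by side.

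**Figure D5:**
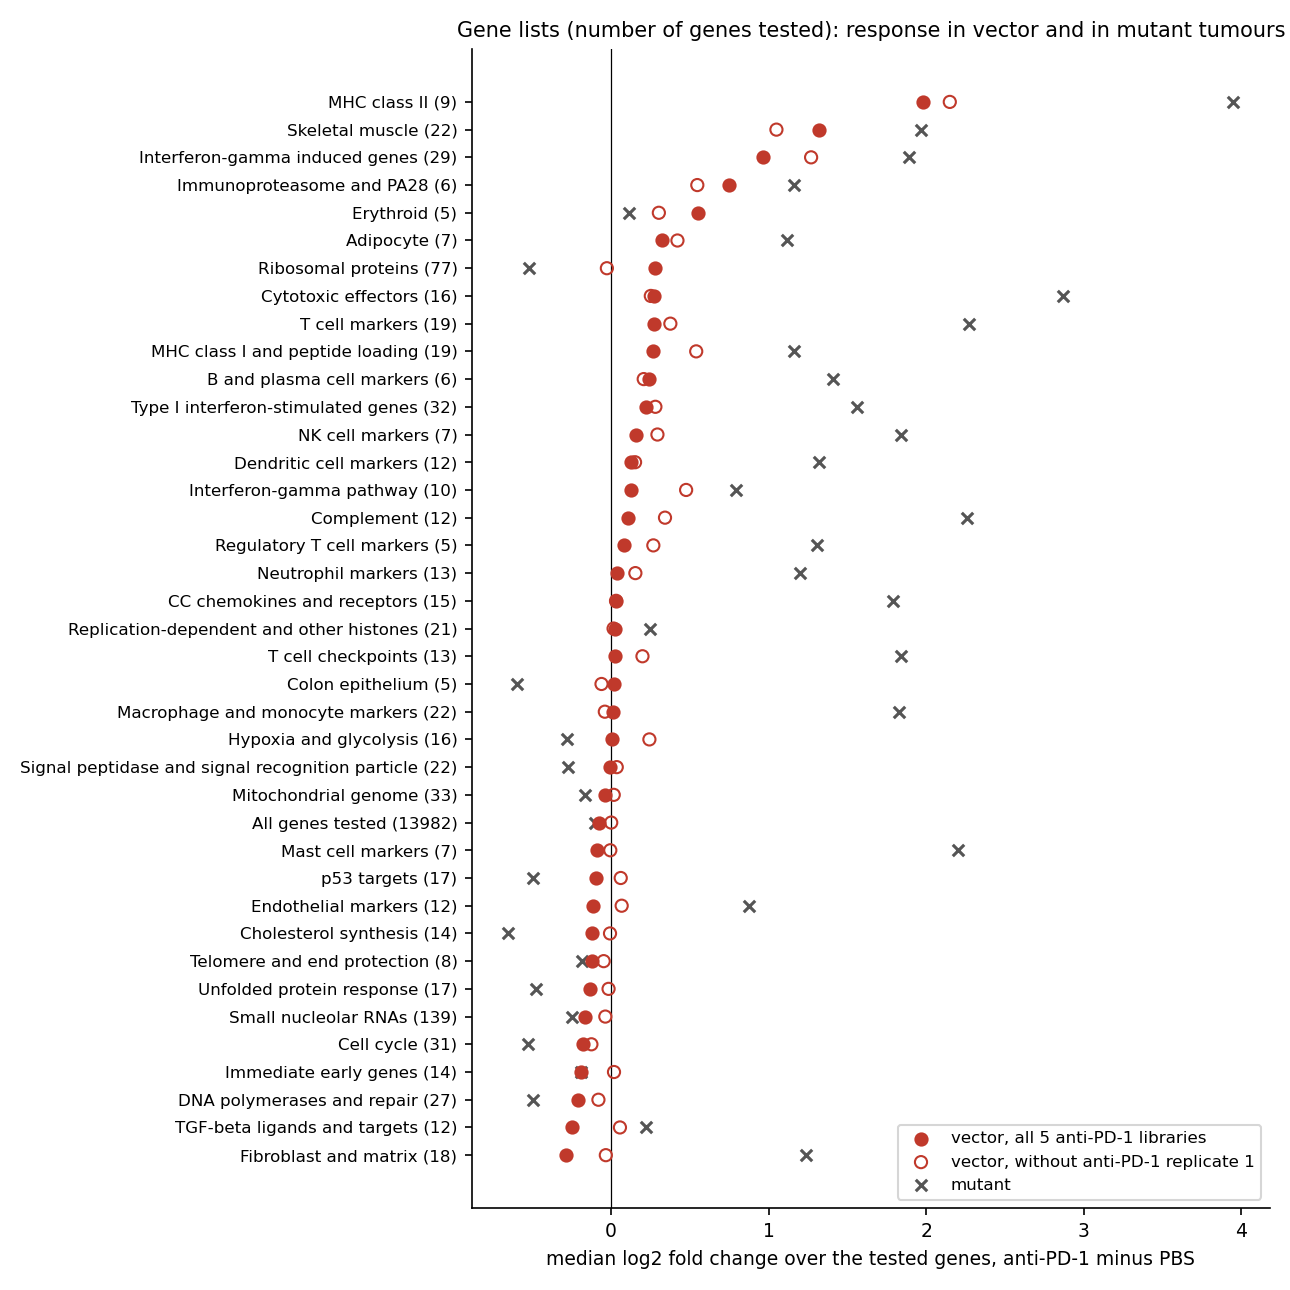
Median log2 fold change, anti-PD-1 minus PBS (horizontal axis), of the tested genes of each list (rows, with the number tested). Filled red circles are vector tumours with all libraries, open circles vector tumours without anti-PD-1 replicate 1 and crosses mutant tumours; class II has 1.98, 2.15 and 3.95, interferon-gamma induced genes 0.97, 1.27 and 1.89.

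Snord100 and P2rx7, 2 named genes outside these lists, are described next. Snord100, a C/D box small nucleolar RNA in an intron of the ribosomal protein gene Rps12 on chromosome 10 (23785750 to 23785823 of mm10), had 0.0230, 5.99, 3.40, 12.4 and 18.4 FPKM in vector anti-PD-1 tumours, against 0.0237 to 0.0480 FPKM in vector PBS tumours. In 4 of 5 anti-PD-1 tumours it exceeded 3 FPKM and replicate 1 was at the PBS level. The log2 fold change was 2.55 ± 0.69 (SE, limma adjusted p = 0.724) and the difference from the mutant response 3.17. It reached 1 FPKM in 4 vector anti-PD-1, 0 vector PBS, 2 mutant anti-PD-1 and 2 mutant PBS libraries. It thus passed the filter in part through the group where it is high, and its differences are a description. Rps12 itself had 1299.6, 462, 335, 471 and 385 FPKM in anti-PD-1 and 336 to 527 FPKM in PBS tumours. Whether counting used strand is not given in the sources used here, and reads of the small RNA and of its host cannot be told apart. P2rx7 had 1.26 to 4.69 FPKM in vector anti-PD-1 and 3.23 to 6.90 FPKM in vector PBS tumours and differed from the mutant response by -1.36 (limma adjusted p = 0.00807).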

How the data were processed

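Tumour RNA was sequenced and 1 table per library was deposited. Per the submitters' processing notes, reads were checked with FastQC and aligned to mm10 with STAR 2.5, and Cuffnorm was used. The deposited values carry no unit and were taken as FPKM made by the authors with Cuffnorm. Counting, strand and depth, not given in the sources used here, are unknown, and low values did not resolve into whole reads, so no counting intervals are given and the number of tumours sets the precision. Symbols matched 55154 of 55335 genes.

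Genes at 1 FPKM or more in at least 5 of 20 libraries (13982) were fitted as log2(FPKM + 1) with limma 3.58.1 in R 4.3.3, with 4 group means, a term for identifier style and a mean-variance trend over all 20 libraries. The contrast was anti-PD-1 minus PBS, adjusted by Benjamini-Hochberg, and the fit was tested on simulated data. Library measures were compared by exact permutation tests (Python 3.11.15, scipy 1.17.1). Alternatives covered pseudocount, filter, scaling, length trend, array weights, style, a muscle term and leaving out each library. Genes named are the 10 higher and 10 lower with the smallest p, members of the lists chosen for their role, and others said to be chosen by their values. The comparison and the lists were chosen with earlier results of these data known. Because no label names separate experiments, p-values measure the spread between these samples, which may be technical.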

Additional observations from a re-analysis of the deposited data

Results flagged for a closer look

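In 15 of 106 groups of 5 values checked, the highest or lowest tumour stood apart from the other 4. About 1 in 20 would do so among independent groups of normal values. These groups are not independent, since genes of the same list and measures of the same library recur, so the count is not compared with that rate. The FPKM total of anti-PD-1 replicate 1 was known to stand apart beforehand. Anti-PD-1 replicate 1 stood apart in its FPKM total (566913), in small RNA genes (8.40%) and in ribosomal protein genes (24%). It was also the low tumour for Spcs2 (3.67 FPKM), Zfp808 (0.565 FPKM) and Mtif3 (1.72 FPKM). Anti-PD-1 replicate 4 was the high tumour for the class II score (4.96) and for Cd74 (169 FPKM), H2-Ab1 (60.8 FPKM), H2-Eb1 (57.9 FPKM) and H2-Aa (51.2 FPKM). Among PBS tumours, replicate 1 stood apart in the type I interferon score (3.93) and in Pot1b (2.11 FPKM), replicate 3 in Cd8a (0.128 FPKM) and replicate 5 in Ifng (0.0302 FPKM, the others being listed at 0).

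Among named genes at 1 FPKM or more in at least 5 vector libraries, some had a response below the mutant one by limma's interaction contrast. They were P2rx7 (-1.36), Gzmb (-3.38), Prf1 (-2.77) and Adgre1 (-3.02), with adjusted p-values of 0.0029 to 0.0199. Of all genes, 7.4% were called lower in vector, a share that includes genes that passed the filter through mutant tumours. The differences were -2.81 for Pdcd1, -2.40 for Cd8a, -1.44 for Cd4, -2.08 for Cd3e and -1.74 for Ifng. These genes reached 1 FPKM in at most 2 vector libraries and passed the filter through mutant tumours, where they are high. For Snord100 the difference was 3.17, and it passed in part through vector anti-PD-1 tumours, where it is high. The differences of these genes and of Snord100 are a description.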

How the results depend on the processing

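No paired analysis was possible because replicate numbers follow accession order and only name a tumour. The count of genes past the adjusted threshold was 5 with array weights and 1 in number-only libraries; it was 0 without any 1 library. The count at p under 0.05 (426) was 728 with a filter of 0.1 FPKM, 1150 with no filter, 997 with array weights, 899 in number-only libraries, 268 with the muscle term and 201 to 1270 without 1 library. The interaction count (1308) was 3214 with array weights, 387 without the 3 least correlated libraries and 688 to 2247 without 1 library. Genes with no overlap numbered 61 higher after quantile normalization and 82 higher with the length trend removed, 41 lower after rescaling to the same total, and 45 to 184 higher and 94 to 159 lower without 1 tumour, where fewer tumours are compared. The difference in FPKM totals (38273) was -3112 to 51847 without 1 library, the lowest being without anti-PD-1 replicate 1. Higher genes were 43.9% of those at p under 0.05; this share was 27.3% after rescaling, 24.1% with small and mitochondrial RNA removed, 54.3% with a pseudocount of 0.1, 53.7% after quantile normalization, 57.5% with the length trend removed, 61.1% with array weights, 57.3% with the 10 vector libraries alone and 18.9% to 66.4% without 1 library. Among genes, Cd4 reversed in M-style libraries (-0.0872), with the muscle term (-0.0213) and without 1 library (-0.0691 to 0.193); Adgre1 in number-only libraries (0.108); and S100a9 with array weights (-0.192), in number-only libraries (-1.14), with the muscle term (-0.105) and without 1 library (-0.183 to 0.685). Medians of the class II (1.54 to 2.25), interferon-gamma induced (0.679 to 1.32), immunoproteasome (0.408 to 0.956) and T cell (0.125 to 0.976) lists stayed above 0 in every alternative run. The causes of these changes were not tested.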

Other observations

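Some genes, chosen after their values were seen, differed widely among tumours of the same group. Srp14, a subunit of the signal recognition particle, had 25.9, 27.1, 28.4, 70.5 and 31.3 FPKM in vector anti-PD-1 tumours, against 70.5, 68.5, 30.7, 65.2 and 66.6 FPKM in vector PBS tumours. Mutant tumours had 35.9, 66.2, 67.8, 63.1 and 64.8 FPKM under anti-PD-1 and 72.4, 73.2, 32.6, 74.8 and 80.4 FPKM under PBS. Pja1, a ubiquitin ligase, had 10.8, 3.98, 11.4, 4.54 and 4.75 FPKM in vector anti-PD-1 tumours, against 12.6 to 14.6 FPKM in vector PBS tumours. Sar1a, a GTPase of vesicle budding, had 13.0 FPKM in vector anti-PD-1 replicate 4 and 26.4 to 43.3 FPKM in the other 4, against 41.5 to 46.9 FPKM in vector PBS tumours.

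Other genes, also chosen after their values were seen, did not overlap between the groups. Ly6a, a surface protein induced by interferons, had 49.3, 53.7, 70.8, 207 and 59.4 FPKM in anti-PD-1 tumours, against 40.1, 19.1, 27.8, 29.9 and 26.7 FPKM in PBS tumours. Npc2, a cholesterol carrier of lysosomes, had 59 to 62.7 FPKM in anti-PD-1 tumours and 50.4 to 56.0 FPKM in PBS tumours, a small difference within narrow groups. Vsig4, a complement receptor of tissue macrophages, had 0.982, 0.450, 1.48, 0.999 and 0.846 FPKM in anti-PD-1 tumours, against 2.78, 2.21, 2.93, 2.71 and 2.37 FPKM in PBS tumours.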
